A study of Mus musculus with 6 samples.

Results

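Reads of 7 abundant noncoding RNAs, Gm26917, Gm42418, Rn7sk, Rmrp, Rpph1, Malat1 and Neat1, were compared across bulk RNA-Seq libraries of mouse lung cells. They were found by gene name in a table of 49315 genes and were chosen by their share of the reads in these libraries, so those shares, and every ratio made from the same counts, are a description with no test. Of the 7, 6 held the largest shares among all genes that the annotation does not class as protein-coding, each with over 1% of reads in at least 1 library. Neat1 reached 0.107% at most and came ninth in that order, after the immunoglobulin genes Ighm and Ighd. Just outside the list, the small Cajal body RNA Scarna2 reached 0.106% and the lincRNA Gm26870 reached 0.0900%. The study treated C57BL/6 mice (C57BL/6J in its methods) by oropharyngeal instillation with sterile saline (sham, Control in the labels) or with Bleomycin sulfate (BLM), which induces lung fibrosis. Lungs were dissociated to single cells, red blood cells were lysed, and cells were left unsorted or sorted by surface Lamp1, a lysosomal membrane protein that the study uses as a marker of senescent cells, into Lamp1-depleted and Lamp1-enriched fractions. Each of the 6 combinations of treatment and fraction is 1 library, made from lungs pooled within a group, so no value below has a replicate and the spread between mice is not known. Where 3 values are given for a treatment, they stand in the order unsorted, Lamp1-depleted, Lamp1-enriched. The labels name the molecule as polyA RNA and the platform as Illumina, and the animals' age was not given in the labels. Rn7sk, Rmrp and Rpph1, which carry no poly(A) tail, together held 2.73 to 4.60% of reads, so the polyA label is in doubt, and whether the libraries were selected for poly(A) RNA was not tested.

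The 7 RNAs belong to 3 kinds. Ribosomal RNA is made by RNA polymerase I, without a poly(A) tail, as a precursor in which the 18S, 5.8S and 28S RNAs are separated by spacers, and Gm26917 and Gm42418 are annotated as lincRNAs in a copy of that repeat. Rn7sk, Rmrp and Rpph1 are small RNAs made by RNA polymerase III, whose transcripts end at a run of T and carry no poly(A) tail. Rn7sk (7SK RNA) holds the elongation factor P-TEFb in an inactive particle, Rmrp is the RNA of RNase MRP, which cuts the rRNA precursor, and Rpph1 is the RNA of RNase P, which trims the 5′ ends of tRNA precursors. Malat1 and Neat1 are long nuclear RNAs made by RNA polymerase II. Malat1 lies in nuclear speckles, Neat1 builds paraspeckles, and RNase P cuts the 3′ end of Malat1 and of the long form of Neat1 next to an A-rich tract that stands in place of a poly(A) tail.

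All 7 are single-exon genes in GENCODE M21 on GRCm38. Gm26917 (ENSMUSG00000097971) lies at chr17:39843013-39846341 on the plus strand and Gm42418 (ENSMUSG00000098178) at chr17:39846958-39848788 on the same strand. Rn7sk (ENSMUSG00000065037) lies at chr9:78175303-78175633, Rmrp (ENSMUSG00000088088) at chr4:43492788-43493058 and Rpph1 (ENSMUSG00000092837) at chr14:50807449-50807767, each on the minus strand. Malat1 (ENSMUSG00000092341) at chr19:5795690-5802672 and Neat1 (ENSMUSG00000092274) at chr19:5824708-5845478 are neighbours on the minus strand, 22035 bases apart.

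Because the labels describe polyA RNA, and these reads put that in doubt, the stretches of A in these transcripts are shown, each with its longest run of A in capitals. The sequences are from the GENCODE M21 transcripts, 5′ to 3′, in DNA letters. For the small RNAs, Rn7sk is shown from base 32 to its end at base 331 (chr9:78175303-78175602, minus strand), Rmrp whole over 271 bases (chr4:43492788-43493058, minus strand) and Rpph1 from base 20 to its end at base 319 (chr14:50807449-50807748, minus strand).
Rn7sk: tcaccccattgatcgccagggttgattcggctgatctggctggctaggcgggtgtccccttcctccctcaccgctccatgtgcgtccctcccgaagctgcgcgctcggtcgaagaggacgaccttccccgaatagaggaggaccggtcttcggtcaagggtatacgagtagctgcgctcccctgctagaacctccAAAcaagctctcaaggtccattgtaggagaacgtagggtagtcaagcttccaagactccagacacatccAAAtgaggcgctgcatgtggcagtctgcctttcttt
Rmrp: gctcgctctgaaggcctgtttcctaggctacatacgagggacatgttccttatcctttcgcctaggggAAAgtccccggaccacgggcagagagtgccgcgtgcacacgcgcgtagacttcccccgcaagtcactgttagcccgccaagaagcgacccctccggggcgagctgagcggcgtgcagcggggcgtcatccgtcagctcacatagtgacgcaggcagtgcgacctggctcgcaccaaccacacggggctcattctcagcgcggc
Rpph1: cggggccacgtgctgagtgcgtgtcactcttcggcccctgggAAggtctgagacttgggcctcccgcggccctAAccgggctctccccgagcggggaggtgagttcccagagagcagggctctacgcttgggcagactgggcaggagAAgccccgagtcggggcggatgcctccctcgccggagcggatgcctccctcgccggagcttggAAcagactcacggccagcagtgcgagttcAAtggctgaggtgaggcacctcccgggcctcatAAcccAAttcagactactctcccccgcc
In these 3 RNAs the longest run of A had 3, 3 and 2 bases. Of 4239 genes whose longest transcript has 200 to 400 bases, 62.2% had no run of more than 4. The long nuclear RNAs differed from them in sequence, and their 3′ ends are shown as bases 6594 to 6765 of 6983 in Malat1 (chr19:5795908-5796079, minus strand) and as the last 150 of 20771 bases in Neat1 (chr19:5824708-5824857, minus strand).
Malat1: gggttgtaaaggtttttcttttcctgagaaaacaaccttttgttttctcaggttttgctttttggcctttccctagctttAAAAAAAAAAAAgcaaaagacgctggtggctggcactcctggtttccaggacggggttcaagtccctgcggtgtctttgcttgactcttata
Neat1: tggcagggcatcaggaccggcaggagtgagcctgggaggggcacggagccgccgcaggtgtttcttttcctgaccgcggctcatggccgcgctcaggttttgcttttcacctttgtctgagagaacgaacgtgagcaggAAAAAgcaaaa
Malat1 held an A run of 12 bases, 298 bases before its annotated end, a length reached in 5.86% of 48970 genes. The longest run in Neat1 had 7 bases and lay inside the transcript, and the printed end holds a run of 5. The rRNA-repeat genes are shown around their longest A runs, as bases 2054 to 2197 of 3329 in Gm26917 (chr17:39845066-39845209, plus strand) and bases 140 to 285 of 1831 in Gm42418 (chr17:39847097-39847242, plus strand).
Gm26917: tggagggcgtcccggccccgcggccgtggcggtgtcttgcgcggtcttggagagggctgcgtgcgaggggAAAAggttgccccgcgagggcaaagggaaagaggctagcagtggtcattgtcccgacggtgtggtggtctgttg
Gm42418: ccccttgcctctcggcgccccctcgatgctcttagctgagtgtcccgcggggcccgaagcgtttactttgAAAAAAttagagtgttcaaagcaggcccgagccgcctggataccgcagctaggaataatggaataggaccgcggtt
The runs had 4 and 6 bases. Gm26917, Gm42418, Rmrp and Rpph1 had a GC content of 69.1, 60.2, 64.2 and 67.1%, where 3.55% of all genes reached 60%. Rn7sk had 58.0%, Malat1 42.5% and Neat1 47.3%, and the median gene had 47.2%.

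Counted reads ranged from 30236120 in BLM Lamp1-depleted cells to 52918696 in BLM Lamp1-enriched cells. The 7 RNAs together held 7.75, 8.99 and 6.48% of reads in sham and 11.99, 45.8 and 5.50% in BLM. The BLM Lamp1-depleted library therefore stood apart, with 60.4% of its reads outside Gm26917 and Gm42418 against 92.5 to 99.1% in the other 5. It also had the lowest scaling factor by the trimmed mean of M-values (TMM), 0.699 against 0.993 to 1.19. Between 4 and 6 genes held at least 1% of the reads in a library, and 1 to 5 of those were among the 7 RNAs. The gene with the most reads was Rn7sk in sham unsorted and sham Lamp1-enriched cells, Gm26917 in sham Lamp1-depleted, BLM unsorted and BLM Lamp1-depleted cells, and mt-Co1, a mitochondrial subunit of cytochrome c oxidase, in BLM Lamp1-enriched cells. Mitochondrially encoded genes held 3.53 to 8.06% of reads. The fractions were also compared by cell type markers. All 8 endothelial markers were more than 2-fold higher in Lamp1-enriched than in Lamp1-depleted cells in sham and in BLM, all 7 T cell and all 5 B cell markers were more than 2-fold lower, and the Lamp1 transcript itself had log2 ratios of 1.75 and 1.77. The enrichment was not endothelial alone. In sham 7 of 8 epithelial, 4 of 6 fibroblast and 5 of 5 platelet markers were also higher. In BLM these were 5, 6 and 5, and 0 of them were lower in either treatment. Of 8 macrophage markers, 2 were higher and 2 lower in sham, and 3 and 1 in BLM. All 5 NK cell markers were lower in both treatments. Of the neutrophil markers, 1 of 5 was lower in sham and 5 of 6 in BLM. Over all genes, 27.5% were higher and 25.2% lower in sham, and 34.3 and 22.6% in BLM.

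**Figure D1:**
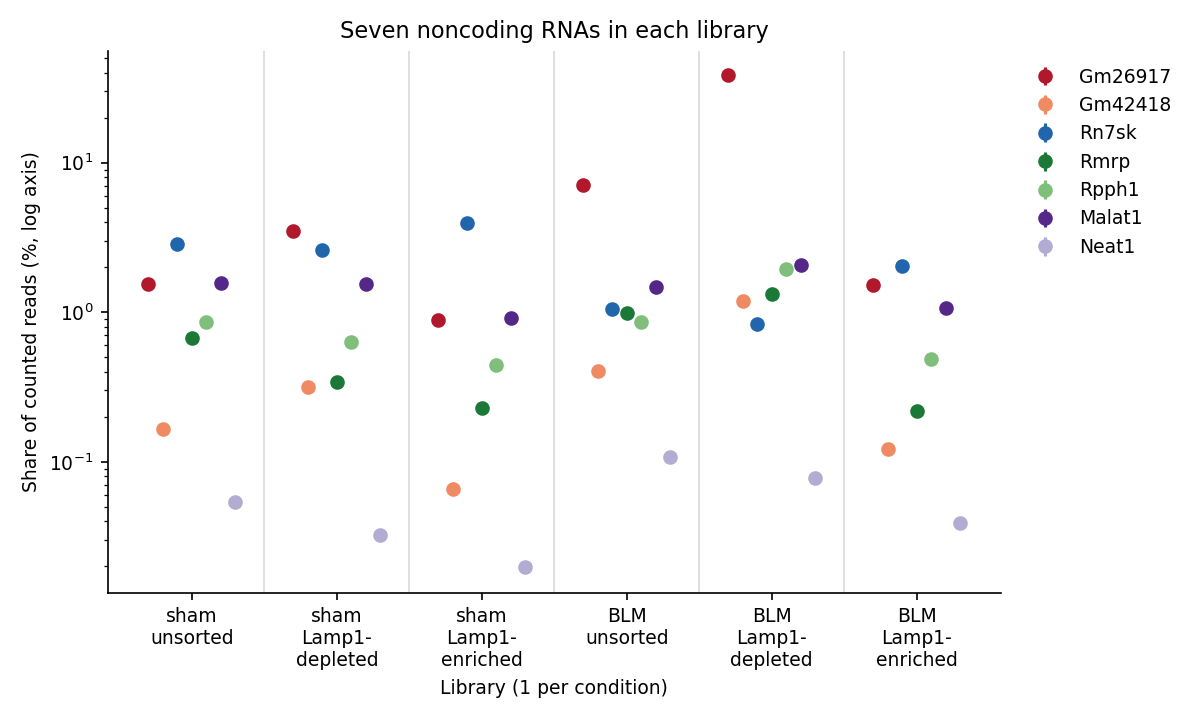
Share of all counted reads (y axis, percent, log scale) of the 7 noncoding RNAs in each of the 6 libraries (x axis), 1 point per RNA and library, with bars for the 95% counting interval, which are mostly smaller than the points. Gm26917 reaches 38.4% in BLM Lamp1-depleted cells and 0.884% in sham Lamp1-enriched cells, while Rn7sk has its highest point in sham Lamp1-enriched cells and its lowest in BLM Lamp1-depleted cells.

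Gm26917 varied most. It held 1.54, 3.50 and 0.884% of reads in the sham libraries. In the BLM libraries it held 7.10, 38.4 and 1.53%, which is 2819744, 11599697 and 810702 reads. The highest share was 43.4 times the lowest, and in each treatment the order was Lamp1-depleted, unsorted, Lamp1-enriched. The exact (Clopper-Pearson) 95% interval of the highest share was 38.3 to 38.4%, and intervals here cover counting error only. PCR copies of a molecule are counted as separate reads, and a library of fewer cells of a type and a library of less RNA per cell cannot be told apart.

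Gm42418 had the same order of the 6 libraries as Gm26917 at a lower level. Its shares were 0.165, 0.316 and 0.0654% in sham and 0.407, 1.19 and 0.122% in the BLM libraries. The highest was 18.2 times the lowest, so Gm42418 varied less than Gm26917. Gm26917 had 9.32, 11.1 and 13.5 reads for each read of Gm42418 in the sham libraries and 17.4, 32.3 and 12.6 in the BLM libraries. The counting interval of the ratio was 32.1 to 32.4 in BLM Lamp1-depleted cells and 12.5 to 12.7 in BLM Lamp1-enriched cells. At these read numbers such intervals are narrow, and they do not cover the spread between mice. Whether the ratio differs between conditions was not tested.

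**Figure D2:**
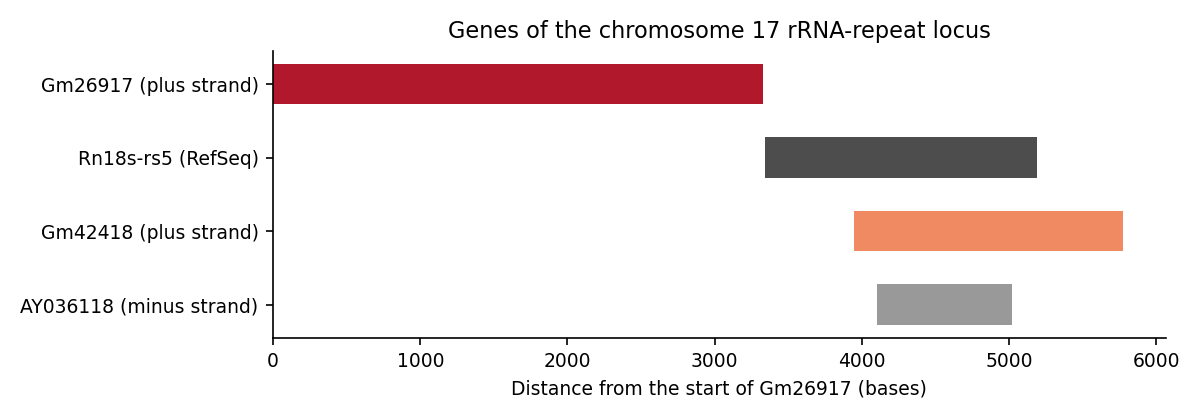
Extent of the annotated genes of the rRNA-repeat locus on chromosome 17 (bars), by distance in bases from the start of Gm26917 (x axis). Rn18s-rs5 starts 12 bases after Gm26917 ends, and AY036118 lies inside Gm42418 on the opposite strand.

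Where these genes lie bears on how their reads were counted. RefSeq places Rn18s-rs5, a sequence related to 18S rRNA that carries Gm42418 among its synonyms, at chr17:39846354-39848202, 12 bases after the end of Gm26917. Gm26917 thus covers the 3329 bases just before the 18S-related sequence, the place of the 5′ spacer of the precursor in an rRNA repeat, and shared no base with another gene. Of the 1831 bases of Gm42418, 1245 lie inside Rn18s-rs5 and 586 past its end. AY036118 on the minus strand covers 923 bases of Gm42418 and had 0 reads in each of the 6 libraries, which allows up to 3 reads a library. Among 415 genes wholly covered by exons on the opposite strand, 96.4% had 0 reads in all libraries, against 24.0% of 38521 genes that share no exon base. Whether reads were counted by strand was not given in the sources used here. Per kilobase of exon, Gm26917 had 5.13 to 17.7 times the reads of Gm42418. Per kilobase free of other genes in the counts, a measure added after seeing the data, it had 2.54 to 8.80 times. No window of 100 bases of Gm26917 was found in the annotated transcripts of another gene. Of the windows of Gm42418, 90.1% occur in AY036118 or CT010467.1, on either strand. The rRNA genes Rn45s, Rn18s and Rn28s1 were not found by name among the counted genes, and the other copies of the rRNA repeat were not analysed here. The part of multiply mapped reads in these counts was not tested.

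Rn7sk ran against the other RNAs. Its shares were 2.87, 2.63 and 3.93% in sham and 1.05, 0.830 and 2.03% in the BLM libraries. Every sham library was above every BLM library, and in each treatment the Lamp1-enriched library was the highest. Counted outside Gm26917 and Gm42418, the shares were 2.92, 2.73 and 3.96% in sham and 1.14, 1.37 and 2.06% in BLM, so the split between treatments did not rest on those reads. The lowest library was then BLM unsorted instead of BLM Lamp1-depleted. Of the 100-base windows of Rn7sk, 61.2% occur in Gm24447, Gm26035 or Gm26315, and these held 973 to 3942, 358 to 938 and 914 to 1811 reads, against at least 250952 on Rn7sk.

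Rmrp and Rpph1, the RNAs of the related enzymes RNase MRP and RNase P, were highest in BLM Lamp1-depleted cells, where Rn7sk had its lowest share. Rmrp held 0.676, 0.339 and 0.229% of reads in sham and 0.981, 1.32 and 0.218% in BLM. Rpph1 held 0.862, 0.628 and 0.441% in sham and 0.866, 1.93 and 0.489% in BLM. The BLM Lamp1-depleted library was also the highest outside the rRNA-repeat genes, with 2.18% for Rmrp and 3.20% for Rpph1. This did not hold throughout, since in BLM Lamp1-enriched cells Rn7sk was below every sham library and Rmrp was at its lowest share too. Rmrp shares 124 of its 271 bases with Ccdc107 on the opposite strand, and Rpph1 shares 233 of its 319 with Ccnb1ip1 on the same strand. Those neighbours held at most 406 and 5 reads in a library. The bases free of other genes in the counts were 147 in Rmrp and 86 in Rpph1, and reads of a second Rmrp gene of GENCODE M21 were not analysed here. All 172 windows of 100 bases of Rmrp occur in Ccdc107 or that second Rmrp gene. Of those of Rpph1, 60.9% occur in Ccnb1ip1. Of 645 genes wholly covered by exons on the same strand, 90.1% had 0 reads in all libraries. That share was 24.0% of 38521 genes that share no exon base. How reads of the shared bases of Rmrp and Rpph1 were assigned was not tested. The levels of both against Rn7sk, which shares no exon base, are therefore less certain than their course over libraries.

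The ratio of one small RNA to another within a library needs no scaling between libraries. Rn7sk had 4.25, 7.73 and 17.1 reads for each read of Rmrp in sham and 1.07, 0.630 and 9.28 in the BLM libraries. Against Rpph1 the same ratios were 3.33, 4.18 and 8.90 in sham and 1.21, 0.429 and 4.14 in BLM. In reads, Rn7sk therefore outnumbered both in 5 libraries and neither in BLM Lamp1-depleted cells. Per kilobase of exon, Rn7sk was also below Rmrp in BLM unsorted cells, at a ratio of 0.878. The read ratio of Rn7sk to Rpph1 moved over a 20.7-fold range. Rmrp and Rpph1 kept closer to each other. Their ratio was 0.784, 0.541 and 0.520 in sham and 1.13, 0.682 and 0.446 in BLM, a 2.54-fold range, and Rmrp exceeded Rpph1 in BLM unsorted cells alone. Between the extremes, Gm26917 had 0.225 reads for each read of Rn7sk in sham Lamp1-enriched cells and 46.2 in BLM Lamp1-depleted cells.

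**Figure D3:**
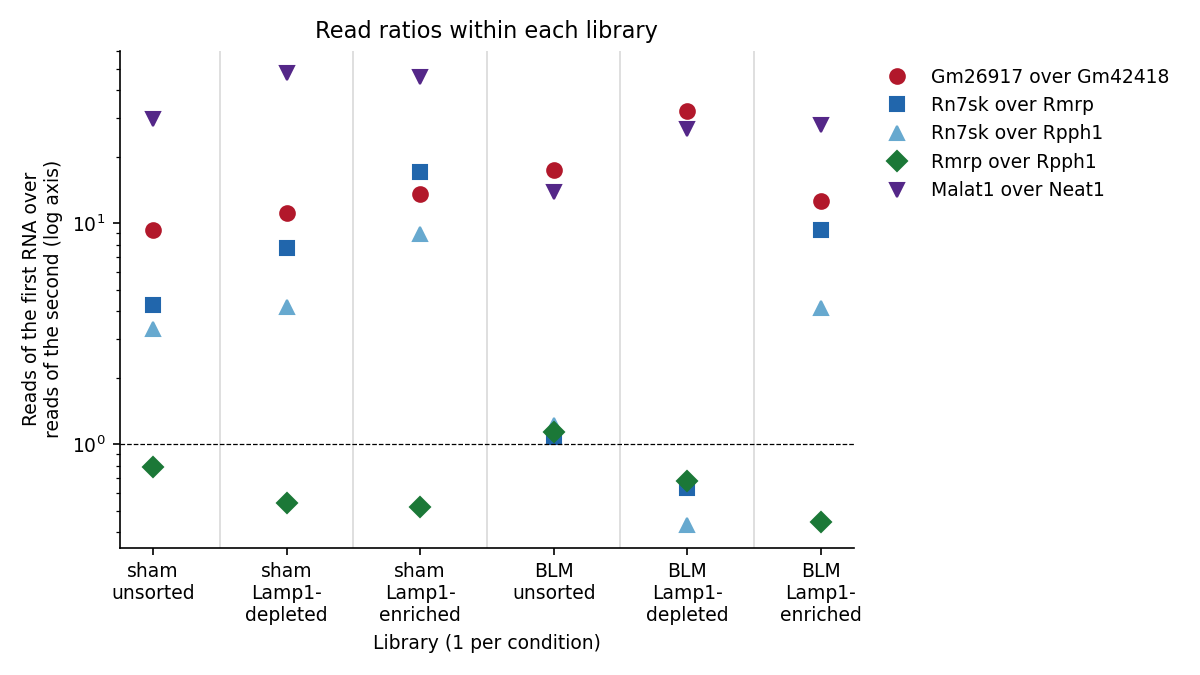
Reads of one RNA divided by reads of another in the same library (y axis, log scale) for 5 pairs in the 6 libraries (x axis), 1 point per pair and library; the dashed line marks equal reads. Rn7sk over Rmrp and Rn7sk over Rpph1 fall below 1 in BLM Lamp1-depleted cells (0.630 and 0.429), and Gm26917 over Gm42418 is highest there (32.3).

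Malat1 had the narrowest range of shares of the 7. It held 1.58, 1.54 and 0.911% of reads in sham and 1.48, 2.06 and 1.07% in the BLM libraries. The highest share was 2.27 times the lowest, and the Lamp1-enriched library was the lowest of each treatment. Outside the rRNA-repeat genes its range was 3.71-fold, and that of Rn7sk, at 3.49-fold, was narrower. Neat1 held 0.0536, 0.0324 and 0.0198% in sham and 0.107, 0.0776 and 0.0387% in BLM. For each fraction the BLM library was above the sham library, and the range was 5.39-fold. The counting interval of the lowest Neat1 share was 0.0194 to 0.0202%. Malat1 had 29.5, 47.7 and 46.0 reads for each read of Neat1 in sham and 13.9, 26.6 and 27.7 in BLM, so the ratio was lower in BLM in each fraction. Malat1 shares 539 of its 6983 bases and Neat1 384 of its 20771 with other genes.

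Levels of different RNAs are comparable only per length. In TMM-scaled CPM (counts scaled to a fixed library size) per kilobase of exon, Rn7sk ranged from 31999 in BLM unsorted to 116217 in sham Lamp1-enriched cells. On that scale Rpph1 ranged from 13550 to 86731, Rmrp from 7819 to 69600 and Gm26917 from 2601 to 164942. Malat1 ranged from 1278 to 4230, Gm42418 from 350 to 9297 and Neat1 from 9.35 to 53.5. In every library the small RNAs were thus above Malat1 per length, and Neat1 was the lowest. These values use the full annotated length, though only 908 bases of Gm42418, 147 of Rmrp and 86 of Rpph1 are free of other genes. The forms of Neat1 were not told apart.

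**Figure D4:**
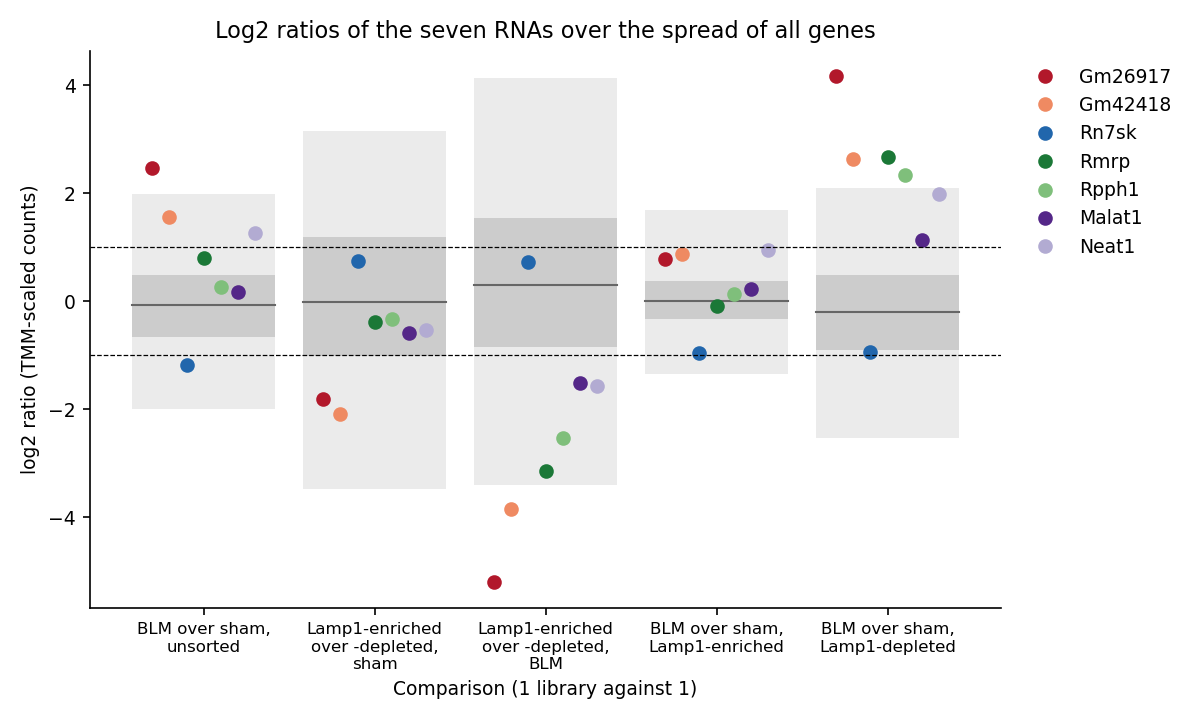
Log2 ratio of TMM-scaled counts (y axis) of the 7 RNAs in the 5 comparisons of 1 library with 1 other (x axis), 1 point per RNA; light boxes span the 5th to the 95th percentile of all genes tested, dark boxes the 25th to the 75th, grey lines their median, and dashed lines mark a 2-fold difference. Gm26917 lies outside the light box in 3 comparisons (2.47, -5.21 and 4.17), and Rn7sk lies on the opposite side of 0 from Gm26917 in all 5.

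To compare libraries, counts were scaled by TMM, a prior count of 0.5 was added, and a gene was kept where the higher of its 2 counts was at least 10. A gene was counted as higher or lower past a 2-fold difference (a log2 ratio of 1). Median log2 ratios over all genes were within 0.07 of 0 in the comparisons other than BLM Lamp1-enriched over Lamp1-depleted (0.29) and BLM over sham in Lamp1-depleted cells (-0.20). Each sorted library enters more than 1 comparison, so the comparisons are not independent of each other. All 7 RNAs passed the filter in each of them.

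In unsorted cells, the comparison of BLM with sham asks what the injury did to the whole suspension. There 3 of the 7 RNAs were higher, against 13.9% of 22772 genes, and 1 was lower, against 16.0% of genes. Gm26917 had a log2 ratio of 2.47, above 97.2% of genes. Gm42418 had 1.57 and Neat1 1.26. Rn7sk was the RNA that was lower, at -1.19, so that its sham level was 2.28 times its BLM level. Rmrp (0.80), Rpph1 (0.27) and Malat1 (0.17) stayed within 2-fold. When libraries were scaled by their total reads alone, Malat1 changed sign to -0.09 and Neat1 came to 0.99. All 8 measured macrophage markers were more than 2-fold higher in BLM unsorted cells. Their part in these differences was not tested.

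Comparing Lamp1-enriched with Lamp1-depleted cells asks how the fraction with surface Lamp1 differs. In sham, 0 of the 7 RNAs were higher, against 27.5% of 21867 genes, and 2 were lower, against 25.2%. These were Gm26917 (-1.81) and Gm42418 (-2.10). Rn7sk was the only member above 0, at 0.75, and the other 4 lay between -0.59 and -0.34. In BLM, 0 were higher, against 34.3% of 21838 genes, and 6 were lower, against 22.6%. Gm26917 had -5.21, with 1.21% of genes below it, Gm42418 -3.85 and Rmrp -3.15. Rpph1 (-2.54), Neat1 (-1.56) and Malat1 (-1.51) followed, and Rn7sk again lay above 0, at 0.73. Scaled by total reads, Rn7sk passed 2-fold (1.29) and Malat1 did not (-0.95), Gm26917 being 38.4% of the total of BLM Lamp1-depleted cells. Endothelial markers made up 0.895 and 0.861% of the reads outside the rRNA-repeat genes in sham and BLM Lamp1-enriched cells and 0.150 and 0.0975% in the depleted cells, so cell make-up moved with these comparisons. Its part in them was not tested.

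Within a fraction, all 7 RNAs stayed within 2-fold between BLM and sham in Lamp1-enriched cells, and 6 were past it in Lamp1-depleted cells. In Lamp1-enriched cells 0 of the 7 RNAs were higher, against 10.2% of 21671 genes, and 0 were lower, against 7.86%. Log2 ratios ran from -0.97 for Rn7sk over -0.08 for Rmrp to 0.78 for Gm26917, 0.88 for Gm42418 and 0.95 for Neat1. In Lamp1-depleted cells 6 were higher, against 13.7% of 20852 genes, and 0 were lower, against 22.3%. Gm26917 had 4.17, Rmrp 2.68, Gm42418 2.63 and Rpph1 2.34. Neat1 (1.98) and Malat1 (1.14) were also past 2-fold, and Rn7sk had -0.94. Scaled by total reads, Rn7sk was past 2-fold lower (-1.66) and Malat1 came to 0.42. All 5 measured neutrophil markers were more than 2-fold higher in BLM Lamp1-depleted cells, with a median log2 ratio of 2.85, and made up 0.0370% of reads outside the rRNA-repeat genes against 0.00539% in sham. Their part in the differences was not tested.

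Other small RNAs were read beside Rn7sk and the pair of Rmrp and Rpph1. Rny1 and Rny3, the Y RNAs of Ro particles, were low in reads. Rny1 had 177, 43 and 196 reads in sham and 68, 29 and 101 in BLM, and Rny3 had 169, 29 and 157 and then 47, 15 and 75. Both were more than 2-fold lower in BLM than in sham in unsorted and in Lamp1-enriched cells, where Rn7sk had -1.19 and -0.97. In Lamp1-depleted cells, where Rn7sk had -0.94, they had 0.53 and 0.16. Rnu2-10, a gene of the spliceosomal U2 RNA, had 124, 38 and 128 reads in sham and 46, 6 and 121 in BLM. Rn7s1 and Rn7s2, genes of the 7S RNA of the signal recognition particle, took the other course. Rn7s1 had 2201, 752 and 1002 reads in sham and 2642, 3405 and 1329 in BLM. Like Rmrp and Rpph1 they were highest in BLM Lamp1-depleted cells, with log2 ratios over sham of 3.29 and 3.38. Terc, the template RNA of telomerase, had 154, 654 and 54 reads in sham and 122, 362 and 50 in BLM and was high in the depleted fraction of each treatment. Of 17 such genes listed, which include Rn7sk, Rmrp and Rpph1, 14 were in the table, 3 of them at 0 reads throughout. Rnu12 and Vaultrc5 were measured as well and followed neither course throughout. For BLM over sham in unsorted, Lamp1-depleted and Lamp1-enriched cells, Rnu12 had log2 ratios of 0.02, -0.11 and 0.005. Vaultrc5, with 9 to 53 reads, had 1.68, -0.35 and -0.70.

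**Figure D5:**
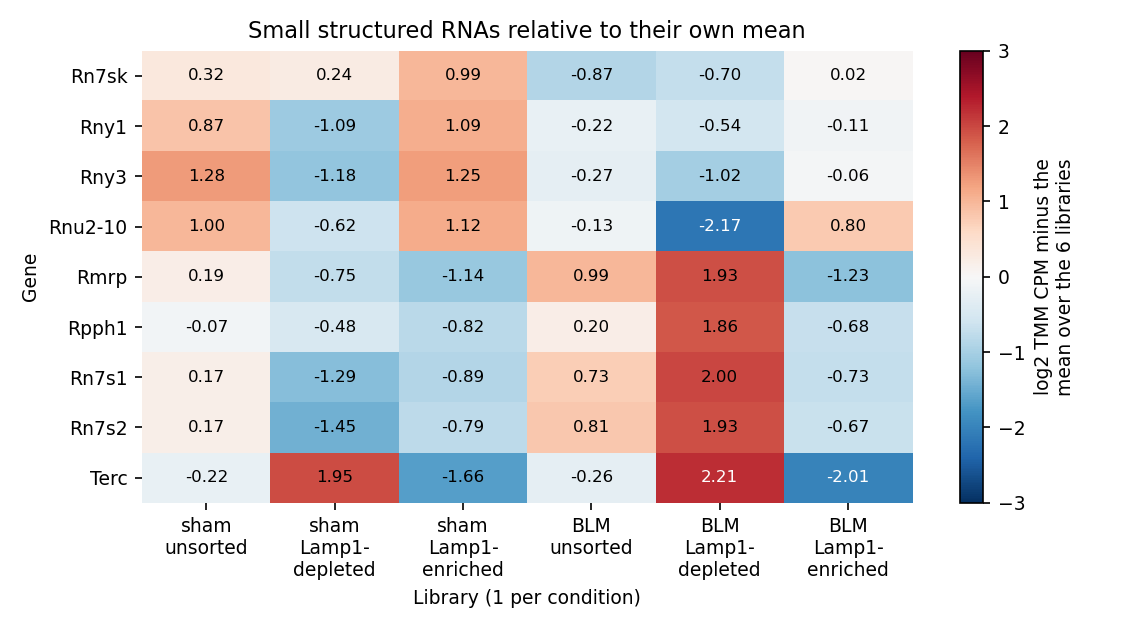
Log2 TMM CPM of 9 small structured RNAs (rows) in the 6 libraries (columns), minus each RNA's own mean over the libraries (colour and printed value, red above and blue below the mean). Rn7sk, Rny1, Rny3 and Rnu2-10 are below their mean in BLM Lamp1-depleted cells, while Rmrp, Rpph1, Rn7s1 and Rn7s2 are 1.86 to 2.00 above theirs, and Terc is high in both Lamp1-depleted libraries. Rnu12 and Vaultrc5 were measured but are not drawn.

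Summed markers of blood elements, which the preparation can carry, also held a smaller share of reads in BLM. The 5 platelet markers made up 0.0335, 0.00437 and 0.0934% of reads outside the rRNA-repeat genes in sham and 0.00499, 0.00139 and 0.0135% in BLM. All 5 were more than 2-fold lower in BLM than in sham in unsorted and in Lamp1-enriched cells, against 16.0 and 7.86% of all genes. In Lamp1-depleted cells 2 of 5 were lower, against 22.3% of all genes. There 2 of the 5 had a log2 ratio above 0, and the median was -0.03. The 5 erythroid markers made up 0.0184 to 0.0633% in sham and 0.00328 to 0.00874% in BLM. Neither list shares a gene with the small RNAs, and the part of these cells in the reads of Rn7sk was not tested.

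Replication-dependent histone mRNAs also lack a poly(A) tail, and they lay with the rRNA-repeat genes in some comparisons and against them in others. They made up 0.0856, 0.166 and 0.110% of the reads outside the rRNA repeat in sham and 0.0597, 0.0595 and 0.0926% in BLM. Between the sham fractions 25 of 56 were more than 2-fold lower in Lamp1-enriched cells, against 25.2% of all genes, and 8 were higher, against 27.5%, with a median log2 ratio of -0.89, on the same side as Gm26917. In BLM, 34 of 56 were more than 2-fold higher in Lamp1-enriched than in Lamp1-depleted cells, against 34.3% of all genes, and 2 were lower, against 22.6%. In Lamp1-depleted cells 40 of 53 were more than 2-fold lower in BLM than in sham, against 22.3% of all genes, and 2 were higher, against 13.7%, with a median of -1.60. In these last comparisons they lay against Gm26917. Hist1h1d, a linker histone, had 1758, 8739 and 1700 reads in sham and 1932, 1752 and 2679 in BLM. Histone mRNA is made in dividing cells, and the share of dividing cells in these libraries was not tested.

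Small nucleolar and Cajal body RNAs guide the modification of rRNA and snRNA. Of 149 genes, 71 had 0 reads in all libraries. In sham, 52 of 73 tested were more than 2-fold lower in Lamp1-enriched than in Lamp1-depleted cells, against 25.2% of all genes, and 1 was higher, against 27.5%. In BLM, 34 of 67 were lower, against 22.6% of all genes, and 7 higher, against 34.3%. Scaled by total reads these were 22 lower and 12 higher, against 15.8 and 46.5% of all genes. Together they made up 0.0939, 0.138 and 0.0474% of the reads outside the rRNA repeat in sham and 0.112, 0.380 and 0.0526% in BLM. The sum does not speak for most of the genes, since between the Lamp1-depleted libraries 15 of 73 were more than 2-fold higher in BLM, against 13.7% of all genes, and 26 lower, against 22.3%, with a median of -0.18. By total reads 9 were higher and 35 lower. Scarna2, which had the most reads of the list, had 26309 in sham and 32057 in BLM Lamp1-depleted cells. Snora15, which had 42 reads in sham and 102 in BLM Lamp1-depleted cells, had 8 and 11 in the Lamp1-enriched cells. Most snoRNAs lie in introns of host genes, and of 16 host genes tested 10 were lower and 2 higher in sham, and 7 lower and 2 higher in BLM (4 and 3 by total reads), to be read against the same shares of all genes. The host gene Snhg15 had 802 and 77 reads in sham depleted and enriched cells and 666 and 185 in BLM.

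The genes of protein partners of these RNAs were read in the same comparisons. Of the 7 genes of the 7SK particle and P-TEFb, 0 were past 2-fold between BLM and sham in unsorted cells, where 13.9% of all genes were higher and 16.0% lower. In Lamp1-enriched cells the count was also 0, against 10.2 and 7.86% of all genes. In Lamp1-depleted cells 1 was higher, against 13.7%, and 0 were lower, against 22.3%. Between the BLM fractions 0 were higher, against 34.3%, and 2 lower, against 22.6%. Larp7, which protects the 3′ end of 7SK RNA, had a log2 ratio of 0.04 in unsorted cells, and Mepce, its capping enzyme, -0.26, while Rn7sk had -1.19. Of 10 protein genes of RNase P and RNase MRP tested, 2 were more than 2-fold lower in BLM than in sham Lamp1-depleted cells, close to the 22.3% of all genes, and 0 higher, against 13.7%, with a median of -0.59. By total reads 7 were lower, against 46.8% of all genes. Pop7 (15 against 97 reads) and Rpp30 (80 against 353 reads) were the lower ones. The median of the 14 RNA polymerase I genes was 0.22 and that of the 26 RNA polymerase III genes -0.02 in that comparison, and Polr1a, the largest subunit of RNA polymerase I, had 0.10. Polr3g, a subunit of RNA polymerase III, had 126, 338 and 96 reads in sham and 221, 192 and 139 in BLM.

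Genes of nuclear speckles lay on the same side as Malat1 and Neat1. All 12 speckle genes had a log2 ratio below 0 for Lamp1-enriched over Lamp1-depleted cells in sham, with 1 past 2-fold against 25.2% of all genes, and all 12 in BLM, with 6 past 2-fold against 22.6% of all genes, where scaling by total reads put 4 of the 12 above 0 and 1 past 2-fold. Their medians were -0.53 and -1.02. Pnn, a splicing cofactor, had -2.01 in BLM and Srrm2, a speckle scaffold protein, -1.53, close to the -1.51 of Malat1. Of 12 paraspeckle genes, 1 was past 2-fold lower in sham and 4 in BLM, with 1 higher in BLM, or 3 lower in sham and 2 in BLM by total reads. These counts are below the share of all genes in sham and not far above it in BLM. Sfpq, a core paraspeckle protein, had -0.91 and -1.90, and Pspc1 -1.05 and -1.71. Elac2, the RNase Z that cuts the tRNA-like end off the Malat1 precursor, had -0.73 and -0.74, and Mettl16, which binds the 3′ end of MALAT1, 0.13 and 0.59.

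Other nuclear long RNAs were read beside Malat1 and Neat1. Of 18 measured, which include those 2, 6 were higher and 5 lower past 2-fold in Lamp1-enriched cells in sham, and 5 higher and 7 lower in BLM. The shares of all genes were 27.5 and 25.2% in sham and 34.3 and 22.6% in BLM, so these counts lie near the background. Hotairm1 had 456, 49 and 384 reads in sham and 122, 25 and 420 in BLM, with log2 ratios of 2.94 and 2.69. Pvt1 had -2.39 and -3.01, and Rian, an imprinted RNA, had 2.25 and 2.92.

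The genes most like each RNA were taken as the 3 with the highest Pearson correlation of log2 TMM CPM over the 6 libraries among 11739 genes with at least 50 reads in each. With 6 points that share their scaling, such values are high for many genes and are a description. For Gm26917 these were Rogdi, Preb and Dhx38 (r of 0.998 to 0.999), for Gm42418 Wdr90, Zfyve26 and the snoRNA Gm24119, and for Rn7sk Atp5h, Dpp4 and Socs4 (0.990 to 0.994). Rmrp was nearest to the snRNA genes Gm23238 and Gm24407 and the snoRNA gene Gm22486 (0.992 to 0.995), all of them small RNAs. Rpph1 was nearest to Neb, Ccdc62 and Wwox, Malat1 to Acrbp, Htra2 and Trim46, and Neat1 to 1700051K13Rik, Hp and Slfn4. Between the 7 RNAs themselves, r was 0.986 for Gm26917 with Gm42418 and at least 0.806 for every pair without Rn7sk. For Rn7sk with the other 6 it ran from -0.954 with Neat1 to -0.716 with Rpph1.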

How the data were processed

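Bulk RNA-Seq of mouse lung cells gave 6 libraries, 1 for each treatment and fraction, matched to groups by their titles. The authors deposited raw counts of reads for each gene, without normalisation. The submitters' processing notes name Trimmomatic 0.36, STAR 2.5.2b, featureCounts, Subread 1.5.2, DESeq2 and the build GRCm38. The annotation release, strand and multimapping settings are not given in the sources used here. Rows without a gene name (174) held at most 0.0138% of a library's reads. Of 49315 genes, 49056 were found in GENCODE M21 by identifier. TMM factors came from edgeR 4.0.16 in R 4.3.3, and ratios and exact binomial intervals from Python 3.11.15 with numpy 2.4.6, pandas 2.3.3 and scipy 1.17.1. The ratios were checked on simulated data. DESeq2 1.42.0 gave size factors as an alternative. With 1 library per group no test was made. The 7 RNAs and all gene lists were chosen with earlier results of these data known. By the rule for named genes, each list gave the genes with the largest ratios between the Lamp1 fractions (50 reads or more in 1 of them), and each RNA its 3 most similar genes. The text names genes from these. Scarna2, Rny1, Rn7s1, Rn7s2, Rnu2-10, Rnu12, Vaultrc5 and Rpp30 were added after their values were seen.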

Additional observations from a re-analysis of the deposited data

Results flagged for a closer look

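Rmrp had opposite signs in comparisons of BLM with sham. Its log2 ratio was 0.80 in unsorted cells (275499 reads in sham, 389761 in BLM) and 2.68 in Lamp1-depleted cells (134453 and 398453 reads), but -0.084 in Lamp1-enriched cells (103348 and 115499 reads). Each value compares 1 library with 1 other, the value in Lamp1-enriched cells lies within 2-fold, and the difference between fractions was not tested.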

How the results depend on the processing

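No paired analysis was possible because each group holds 1 library, and for the same reason no library could be left out of a group. Of 266 values of log2 ratios under other scalings, priors, read minimums or depths, 265 kept their direction. The exception was Malat1 in unsorted cells, which was within 2-fold in either case. A read minimum only decides which genes are kept. All 7 RNAs passed each one, so the values under a read minimum equal the main ones and could not change. At counts of 8938 or more, the prior also hardly moves a ratio. The counts of RNAs past 2-fold were within 1.5 times under 42 of 48 alternatives, which again include the read minimums. With a log2 ratio of 2 required, the count was 1 in unsorted cells and 1 between the sham fractions. With 3 required it was 0 and 0, 3 between the BLM fractions and 1 for BLM over sham in Lamp1-depleted cells, since a stricter limit keeps fewer genes. The share of Gm26917 in BLM Lamp1-depleted cells was 63.5 for each 100 reads outside Gm26917 and Gm42418, 73.5 for each 100 protein-coding reads, and 41.7% without mitochondrially encoded genes. Scaling by total reads moved the median gene to -0.33 in BLM over sham unsorted cells, to 0.85 between the BLM fractions and to -0.92 between the Lamp1-depleted libraries. The percentages of genes higher and lower were then 10.7 and 22.3, 46.5 and 15.8, and 6.79 and 46.8. With TMM factors from the 5 libraries other than BLM Lamp1-depleted, an alternative chosen after seeing the data, the counts in the 3 comparisons without that library were the same. Depth does not limit the 7 RNAs, whose lowest count was 8938 reads, but Rny1, Rny3, Rnu2-10 and Vaultrc5 rest on as few as 6 to 29 reads.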
